A study of Mus musculus with 42 samples.

Results

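Cd69 and 7 receptors that guide lymphocytes between blood and lymphoid tissue (S1pr1, Cxcr4, Ccr7, Itga4, Itgb7, Itgal and Cd44) were followed on 42 Affymetrix mouse expression arrays of pre-B cell lines, before and after radiation. The genes were chosen by name, and every probe set to which the platform annotation gives one of these 8 symbols alone was read. That gave 16 probe sets, of which 14 passed a filter on low signal (above the median signal of the array on at least 3 arrays). All 8 genes had at least 1 such probe set, and they stand among 12363 genes tested. The probe set with the highest mean level represented each gene.

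The cells were 21 pre-B lines transformed with v-abl, an oncogene delivered in the retroviral vector pMSCV. They were made from bone marrow of mice aged 3 to 5 weeks. Every line, including the wild-type controls, carried the label's Em-Bcl2 transgene, which is usually written Eμ-Bcl2 and drives the survival factor Bcl2 in lymphoid cells. All groups thus share the transformation and the transgene. The 7 genotypes were wild type (WT) and mice mutated in a DNA damage response gene: Atm-/-, Scid (DNA-PKcs/Prkdc), Mre11A/A (an Mre11 hypomorph), 53bp1-/-, H2ax-/- and Mdc1-/-. Each had 3 lines, numbered 1, 3 and 4 in WT and 1, 2 and 3 elsewhere. RNA was taken from each line 2 h after a mock treatment (0 Gy) and 2 h after 1 Gy of γ-rays, so each of the 14 groups had 3 arrays. The labels call the 3 arrays biological replicates and do not say whether the lines came from separate mice, so p-values measure the spread between these lines. The study compared the radiation response of each mutant with that of WT.

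Cd69 is a membrane protein that lymphocytes put on their surface soon after activation, and it binds S1pr1 and takes it off the surface. S1pr1 is the receptor for sphingosine-1-phosphate through which lymphocytes leave lymphoid organs, so Cd69 holds cells in the tissue. Cxcr4 and Ccr7 are chemokine receptors: Cxcr4 binds Cxcl12 and keeps B cell precursors in the marrow, and Ccr7 binds Ccl19 and Ccl21 and draws lymphocytes into lymph nodes. Itga4 is the α4 integrin chain, which pairs with Itgb7 to bind the gut vessel ligand Madcam1 or with Itgb1 to bind Vcam1. Itgal is the α chain of LFA-1, whose ligand is Icam1, and Cd44 is a receptor for hyaluronan. In lymphocytes Cd69, Ccr7 and Icam1 are known as genes that NF-κB can induce, and Atm is known to activate NF-κB after DNA breaks.

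The values are MAS5 signals, linear intensities that were scaled to the same trimmed mean on every array. Changes are given on the log2(signal + 16) scale, where the added 16 understates the change of dim genes. The labelled cell type fitted its markers: 11 of 12 pre-B markers on the array (Cd79a, Vpreb1, Igll1 and others) were above the array's own median on all 42 arrays, and the twelfth, Rag2, was above it on 34. Bcl2 is among the 11 and is the factor that the transgene drives, so it does not bear on the cell type. Of 7 T cell, 4 NK cell, 6 myeloid, 2 erythroid and 5 stromal markers, Csf1r alone had a median signal above the reference level defined in the next paragraph. All 12 pre-B markers did. Cd8a was close to that level (median 98.2). Csf1r was above the array's own median on 42 arrays, Cd8a on 36, Epor on 23 and Lyz2 on 21, and the others on 16 or fewer. Cd5 reached 717. The arrays' median signals ran from 62.3 to 115, and the irradiated arrays of Atm-/- line 2 (115) and WT line 4 (103) stood above the other 40, which reached 82.7. The knocked-out genes checked the labels for Atm-/- (129 to 281 against 1300.0 to 1756 in WT), H2ax-/- (18.7 to 107 against 8328 to 12982) and Mdc1-/- (3.52 to 176 against 336 to 476). The Mre11A/A lines were lower on Mre11's brighter probe set (462 to 706 against 1322 to 1706) and higher on the dimmer one (223 to 297 against 95.1 to 214), and 53bp1-/- overlapped WT on the brightest probe set (736 to 1291 against 1176 to 1849) and lay below it on the next (295 to 505 against 599 to 903). The Scid mutation changes a codon, so its probe set checks nothing. Each array reads the RNA of a whole culture, in which fewer cells of a type and less RNA per cell cannot be told apart.

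Whether a receptor gene was expressed at all was read against 39 probe sets of 18 genes restricted to other tissues, such as Alb of liver, whose signals had a median of 18.9 and a 90th percentile of 101. Cd69, Cxcr4, Ccr7 and Itga4 were above both this level and the array's own median on all 42 arrays. S1pr1 was above the reference level on 38 arrays and Itgal on 34, and each was above the array's own median on 39. Cd44 was above the reference level on 29 arrays and near the lowest signals on others. Itgb7 was above its array's median on 14 arrays and above the reference level on 6, so its transcript was not distinguishable from absent genes on most arrays. Signals of different probe sets are not compared with each other here, because probe sets differ in how well they hybridise.

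**Figure D1:**
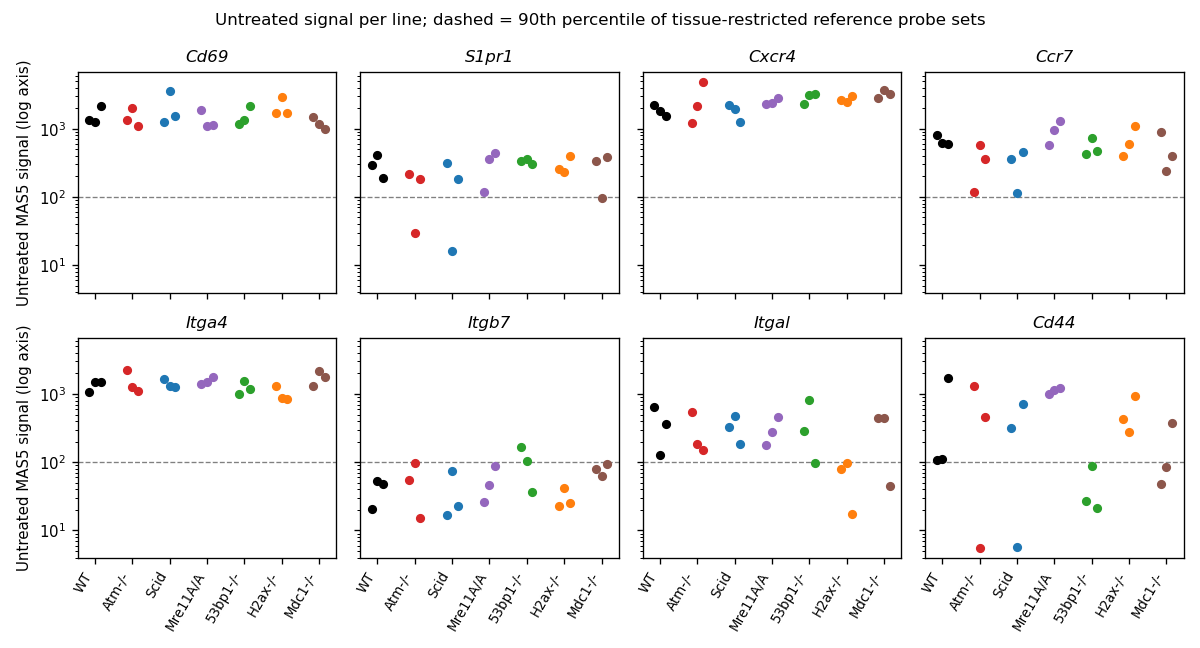
MAS5 signal (log axis) of the 8 genes in each of the 21 untreated lines, by genotype; each point is 1 line and the dashed line marks 101, the 90th percentile of the tissue-restricted reference probe sets. Cd69, Cxcr4, Ccr7 and Itga4 lie above the dashed line in every line, Itgb7 lies mostly under it, and Cd44 spans 5.56 to 1742.

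Itga4 and Itgb7 encode the 2 chains of one integrin, α4β7, and the first was detected on every array while the second was not, so the 250 bases before their start sites are shown (RefSeq, GRCm38.p6, 5′ to 3′ on the gene's strand). Capitals mark matches on either strand to GGGNGTG, a core bound by Klf2, the Krüppel-like factor known to act on S1pr1 and Itgb7 in lymphocytes. Itga4 lies on the plus strand of chromosome 2 and its window is chr2:79255176-79255425. Itgb7 lies on the minus strand of chromosome 15 and its window is chr15:102231936-102232185.
Itga4: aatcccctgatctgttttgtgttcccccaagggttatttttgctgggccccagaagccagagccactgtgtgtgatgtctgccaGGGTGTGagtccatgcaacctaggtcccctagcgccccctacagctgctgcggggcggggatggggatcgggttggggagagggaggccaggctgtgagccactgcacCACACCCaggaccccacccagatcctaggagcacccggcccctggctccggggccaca
Itgb7: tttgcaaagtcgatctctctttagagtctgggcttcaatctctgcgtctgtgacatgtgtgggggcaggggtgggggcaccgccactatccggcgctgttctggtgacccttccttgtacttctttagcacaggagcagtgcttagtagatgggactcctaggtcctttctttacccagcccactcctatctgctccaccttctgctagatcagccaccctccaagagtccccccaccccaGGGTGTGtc
The matches in Itga4 began 166 bases before the start site and, on the opposite strand, 58 bases before it, with one more 6 bases after it and so outside the printed stretch. The match in Itgb7 began 9 bases before the start site. Of 32851 promoter windows of the same 300 bases (250 before and 50 after a start site), 29.2% held GGGNGTG, which overlaps other GC-rich motifs. TGANTCA, the AP-1 motif, was in 7.81% and the NF-κB consensus decamer in 8.46%, and neither was in the windows of Cxcr4, Itga4, Itgb7 or Cd44. The set of windows did not hold Cd69, S1pr1, Ccr7 or Itgal, so these were not searched. A match is a run of letters and was not tested as a binding site.

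Cd69 rose after radiation in WT, H2ax-/- and Mdc1-/- lines, and its signal was higher after radiation in 21 of 21 lines. In WT its signal went from 1347 to 6424 in line 1, from 1254 to 8440.0 in line 3 and from 2144 to 7572 in line 4. In Mdc1-/- it went from 1478 to 7900.5 in line 1, from 1189 to 8475 in line 2 and from 1001 to 7650.2 in line 3. In H2ax-/- it went from 1705 to 9953 in line 1, from 2896 to 11546 in line 2 and from 1679 to 7023 in line 3. In these 3 genotypes every irradiated array was above every untreated array of the genotype, with no overlap. How often such small groups separate over all genes was not counted, so overlap here and below only describes the values. The mean change was 2.26 ± 0.35 (log2, with limma's SE from the spread of all arrays, n = 3 lines) in WT, 2.19 ± 0.35 in H2ax-/- and 2.71 ± 0.35 in Mdc1-/-. By limma's moderated test with all 42 arrays as unpaired samples, these changes passed an adjusted p of 0.05 (Benjamini-Hochberg over the 12363 genes): 0.00079 in WT, 0.00187 in H2ax-/- and 4.28e-05 in Mdc1-/-. Of all genes tested, the same test called 0.0971% in WT, 0.089% in H2ax-/- and 0.631% in Mdc1-/-. Cd69 was 1 of 12 genes called in WT, 1 of 11 in H2ax-/- and 1 of 78 in Mdc1-/-. When each line was compared with itself (the line as a block), Cd69 was called in these 3 genotypes too. The block called 3.76% of all genes in WT, 1.97% in H2ax-/- and 5.72% in Mdc1-/-.

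Cd69 in 53bp1-/- and Scid was called with the line as a block, and not by the unpaired test, which ignores the pairing. In 53bp1-/- it went from 1159.9 to 4099.9 in line 1, from 1323 to 5227 in line 2 and from 2133 to 5754 in line 3. In Scid it went from 1232 to 8570.0 in line 1, from 3621 to 4335 in line 2 and from 1509 to 4723 in line 3. The groups did not overlap in either genotype, and Scid line 2 stood out with the highest untreated signal of all 21 lines and a change of 0.26, against 2.78 in line 1 and 1.64 in line 3. The mean change was 1.73 ± 0.35 in 53bp1-/- (adjusted p = 0.0642) and 1.56 ± 0.35 in Scid (adjusted p = 0.0619), both short of the threshold, where 0.0243% and 0.0728% of all genes were called. With the line as a block, which compares each line with itself, both passed: 0.000458 in 53bp1-/-, where 1.94% of genes were called, and 0.00115 in Scid, where 2.69% were. The Scid call was lost without line 1 (adjusted p = 0.114). In the unpaired test it was made without the untreated array of Scid line 2 (adjusted p = 0.00618), and the 53bp1-/- call without the untreated array of line 3 (adjusted p = 0.0345).

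Atm-/- and Mre11A/A had the smallest mean difference in Cd69. In Atm-/- it went from 1337 to 2417 in line 1, from 2033 to 3041 in line 2 and from 1093 to 1160.5 in line 3. In Mre11A/A it went from 1887 to 2185 in line 1, from 1094 to 2693 in line 2 and from 1120.2 to 1923 in line 3. The irradiated and untreated arrays overlapped in Atm-/- and did not in Mre11A/A, where they lay close together. The mean change was 0.50 ± 0.35 in Atm-/- (adjusted p = 1.00; 0.387 with the line as a block) and 0.76 ± 0.35 in Mre11A/A (adjusted p = 1.00; 0.812 with the block). In the unpaired fit without the 2 arrays with high medians, of which the irradiated Atm-/- line 2 is one, the Atm-/- mean was 0.22. That fit kept the untreated array of line 2, which had the highest untreated signal of the genotype, so it broke the pairing. Compared with themselves, Atm-/- lines 1 and 3 changed by 0.85 and 0.085. None of the 8 genes was called in Atm-/- or Mre11A/A. Cd69 had an unadjusted p under 0.05 by limma in 6 of 7 genotypes, all but Atm-/-, unpaired and with the block. In Mre11A/A 549 of 12363 genes had such a p with the block. For comparison, limma called 0.00809% of all genes in Atm-/- and 0% in Mre11A/A, where 137 genes had an unadjusted p under 0.05; with the block the shares were 1.33% and 0.0324%. These 2 genotypes were set together for their small mean changes, so some separation of their irradiated signals follows from that choice. Their 6 irradiated arrays read 1160.5 to 3041 for Cd69, and the 15 irradiated arrays of the other 5 genotypes read 4099.9 to 11546. Before radiation the same sets of lines overlapped, at 1093 to 2033 and 1001 to 3621.

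**Figure D2:**
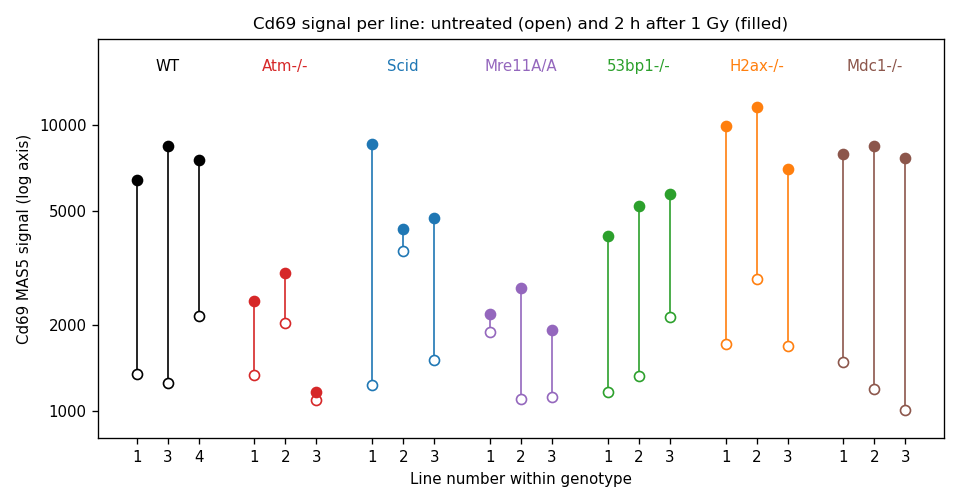
Cd69 MAS5 signal (log axis) in each of the 21 lines, untreated (open) and 2 h after 1 Gy (filled), joined by a line and grouped by genotype. The filled point is above the open one in 21 of 21 lines, with the shortest joins in Atm-/- line 3, Mre11A/A line 1 and Scid line 2.

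The response of Cd69 in each mutant was then set against that in WT. It was smaller in Atm-/- by 1.76 ± 0.49 log2 units (-1.76 as Atm-/- minus WT). The unpaired test did not call this difference (adjusted p = 0.48, 0.0243% of genes called), and the test with the line as a block did (adjusted p = 0.0178, 2.07% called). The blocked call was lost without WT line 1, WT line 3 or Atm-/- line 3, with adjusted p up to 0.128 over the lines left out. In Mre11A/A the response was -1.51 ± 0.49 relative to WT, with an adjusted p of 1.00, or 0.198 with the block. In Scid (-0.70 ± 0.49), 53bp1-/- (-0.53 ± 0.49), H2ax-/- (-0.07 ± 0.49) and Mdc1-/- (0.45 ± 0.49) the difference from WT was within about 1.5 of its SE and was not called. A test over all 7 genotypes gave Cd69 an adjusted p of 0.817 unpaired (0.0162% of genes called) and 0.0117 with the block (0.979% called). Without the lines of the 2 high-median arrays the blocked difference between Atm-/- and WT was -2.02 (adjusted p = 0.0219). The shares of all genes called for the other mutants against WT were 0% unpaired, and with the block 0.00809% in Scid and in Mre11A/A and 0% elsewhere. Of the other 7 genes, none was called in these comparisons of responses (42 tests against WT, 0 with an unadjusted p under 0.05 by limma with or without the block).

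Ccr7, the lymph node homing receptor, was higher after radiation in 17 of 21 lines, by less than Cd69. In Mdc1-/- its signal went from 881 to 1136 in line 1, from 241 to 492 in line 2 and from 393 to 678 in line 3. In WT it went from 808 to 1038 in line 1, from 617 to 1161 in line 3 and from 603 to 568 in line 4. In Scid it went from 355 to 829.7 in line 1, from 114 to 123 in line 2 and from 460.0 to 533 in line 3. The spread between lines was wide: the irradiated and untreated groups overlapped in all 7 genotypes, and Scid line 1 had the largest change, 1.19. In 53bp1-/- the 3 lines changed by nearly the same amount, 0.34, 0.35 and 0.40, and in H2ax-/- by 0.68, 0.42 and 0.34. In Atm-/- the changes were 0.31, -0.11 and 0.056, and in Mre11A/A 0.036, -0.094 and -0.20. The 4 lines with a lower signal were 1 of WT, 1 of Atm-/- and 2 of Mre11A/A.

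The unpaired test called Ccr7 in no genotype, and the spread between the untreated lines enters that test (0.70 ± 0.59 in Mdc1-/-, adjusted p = 1.00). With the line as a block the rise in Mdc1-/- was called (adjusted p = 0.0113), among 5.72% of genes called there. That call was lost without Mdc1-/- line 2 or line 3, with adjusted p up to 0.190. In WT (0.252), Scid (0.147), 53bp1-/- (0.503) and H2ax-/- (0.191) the blocked adjusted p stayed above 0.05, although 5 of the 7 genotypes had an unadjusted p below it. Lines in which Cd69 changed more also had larger Ccr7 changes, with a Pearson r of 0.79 and a Spearman rho of 0.84 over 21 lines, and an r of 0.72 after the genotype means were taken out. Within genotypes the Cd69 changes spread most in Scid (SD 1.26, against 0.54 or less elsewhere), so the Scid lines weigh most in that last r. These points share arrays and, in threes, a genotype, so they are a description.

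**Figure D3:**
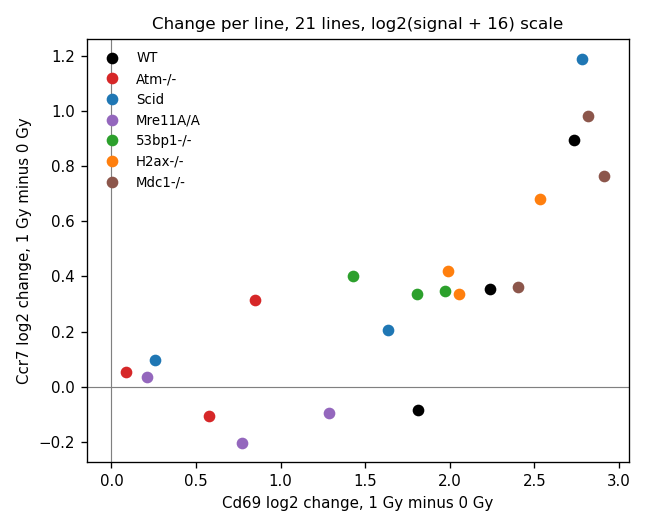
Change in Ccr7 against change in Cd69 (both log2, 1 Gy minus 0 Gy) in 21 lines, coloured by genotype. Mre11A/A and Atm-/- lines and Scid line 2 lie at the lower left, and Scid line 1, WT line 3 and the Mdc1-/- lines at the upper right (Scid line 1: 2.78 for Cd69 and 1.19 for Ccr7).

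S1pr1, the egress receptor that Cd69 removes from the surface, was lower after radiation in 15 of 21 lines, but no change passed the test. In WT its signal went from 293 to 135 in line 1, from 412 to 244 in line 3 and from 189 to 209 in line 4. In Mdc1-/- it went from 335 to 200.1 in line 1, from 95 to 108 in line 2 and from 389.8 to 286 in line 3. In H2ax-/- it went from 260.1 to 228 in line 1, from 233 to 178 in line 2 and from 397 to 395 in line 3. Of these 9 lines WT line 1 had the lowest ratio of irradiated to untreated signal, and irradiated and untreated arrays overlapped in all 7 genotypes. The mean change was -0.54 ± 0.65 in WT, -0.32 ± 0.65 in Mdc1-/- and -0.18 ± 0.65 in H2ax-/-. The lowest adjusted p over the 7 genotypes was 1.00 unpaired and 0.441 with the block, and 0 of 7 had an unadjusted p under 0.05 by limma in either test. The 2 largest changes were upward and came from the 2 dimmest lines, Atm-/- line 2 (from 29.2 to 130.0) and Scid line 2 (from 16.2 to 55.1). Their untreated signals were below the reference level of 101, where a signal is near background.

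Cxcr4, the receptor that keeps B cell precursors in marrow, stayed within a narrow band. Its signal ran from 1231 to 4765 on the 42 arrays, with a median of 2409, and both extremes were untreated Atm-/- lines (1 and 3). Its change was above 0 in 13 of 21 lines and averaged 0.047 log2 units, from -0.56 in Atm-/- line 3 to 0.54 in Scid line 3. In WT it went from 2251 to 2377 in line 1, from 1811 to 2097 in line 3 and from 1552 to 1372 in line 4. Irradiated and untreated arrays overlapped in every genotype. The lowest adjusted p of the 7 responses was 1.00 unpaired and 0.355 with the block. Before radiation Cxcr4 read 2251, 1811 and 1552 in the WT lines and 2849.5, 3727 and 3258 in Mdc1-/-, so each Mdc1-/- line was above each WT line. The difference was 0.81 ± 0.32 log2 units and was not called (adjusted p = 0.158; 0.0909 with the line as a random block), in a comparison where 4.97% of genes were.

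Among the integrin chains, Itga4 was the steadiest on the probe set used. Its signal ran from 836 to 2321, and the untreated lines differed by at most 2.69-fold. The change after radiation was below 0 in all 3 53bp1-/- lines, which went from 1011 to 845 in line 1, from 1571 to 1236 in line 2 and from 1198 to 862 in line 3, a mean of -0.35 ± 0.26. The groups overlapped there and the change was not called (adjusted p = 1.00; 0.171 with the block). In Mdc1-/- the 3 lines changed by 0.01, -0.19 and -0.61. The other 3 kept Itga4 probe sets moved in the same direction as the one used in 14, 12 and 11 of 21 lines, so the direction of these small changes depends on the probe set. Over the untreated lines their Pearson r with it on the log2 scale was 0.79, 0.53 and 0.27, in the same order. The last of them was above its array's median on all 42 arrays and ran from 207 to 1572. After radiation it was lower in 14 of 21 lines and higher in 7, and lower in every WT and H2ax-/- line (means -0.43 and -0.61, not tested). The remaining Itga4 probe set was above its array's median on no array.

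Itgb7, the chain that pairs with Itga4 for gut homing, was dim, and its changes were large in both directions. Its signal ran from 7.18 to 167, with the highest untreated values in 53bp1-/- (167, 106 and 36.3). In Mdc1-/- it went from 79.1 to 39.6 in line 1, from 63.8 to 11.9 in line 2 and from 93.8 to 37.4 in line 3, all below the reference level. The groups did not overlap there, and the mean change of -1.11 ± 0.65 was not called (adjusted p = 1.00; 0.299 with the block). In Atm-/- line 3 it went the other way, from 15.1 to 92.8. At such signals changes of this size also occurred between lines of one genotype: in Mre11A/A the 3 lines changed by 1.04, 1.01 and -1.63.

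Itgal, the α chain of LFA-1, was higher after radiation in 16 of 21 lines, among them every WT, Mre11A/A, H2ax-/- and Mdc1-/- line. In WT it went from 639.8 to 729 in line 1, from 128 to 177 in line 3 and from 368 to 586 in line 4. In H2ax-/- it went from 79.4 to 109 in line 1, from 99.1 to 125 in line 2 and from 17.2 to 50.5 in line 3. In Mdc1-/- it went from 438 to 559.6 in line 1, from 439 to 594 in line 2 and from 44.4 to 93.4 in line 3. The lines of a genotype lay much further apart than each line moved, and the mean change was 0.42 ± 0.86 in WT, 0.56 ± 0.86 in H2ax-/- and 0.54 ± 0.86 in Mdc1-/-. None was called (unpaired adjusted p = 1.00 in each; with the block 0.293, 0.184 and 0.123). The second, dimmer Itgal probe set (3.29 to 153) moved in the same direction in 11 of 21 lines. Over the 21 lines the change in Itgal had a Pearson r of 0.61 and a Spearman rho of 0.61 with that in Cd69, again as a description of points that share arrays.

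Before radiation Itgal was lowest in H2ax-/-, at 79.4, 99.1 and 17.2, against 639.8, 128 and 368 in WT. Every H2ax-/- line was below every WT line. The difference was -2.21 ± 0.86 log2 units and was not called (adjusted p = 0.156; 0.0661 with the line as a random block), where 4.08% of genes were. Mdc1-/- line 3 (44.4) was as low, beside sister lines at 438 and 439, and so was 53bp1-/- line 3 (98.4), beside sister lines at 285 and 817.

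Cd44, the hyaluronan receptor, differed from line to line far more than it changed with radiation. The untreated lines spanned 5.56 to 1742. In WT the signals were 109, 113 and 1742, so line 4 was far above the others. In Atm-/- they were 1291, 5.56 and 459, and in Scid 318, 5.65 and 719.8. Line 2 of each of these genotypes was at the level of absent genes, beside sister lines well above it. The 3 Mre11A/A lines were high together at 1007, 1137 and 1230.2, and the 3 53bp1-/- lines were low together at 27.1, 88.5 and 21. H2ax-/- read 427, 280.1 and 928 and Mdc1-/- 48.2, 85.3 and 372.

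The SD between lines of the Cd44 level was 2.05 log2 units, and the SD between lines of its change was 0.52. Lines with a high level had similar values after irradiation: WT line 4 went from 1742 to 1603 and Mre11A/A line 1 from 1007 to 1011. The largest changes were in dim lines, Scid line 2 (from 5.65 to 52.7) and 53bp1-/- line 3 (from 21 to 1.05). No response was called (lowest adjusted p 1.00 unpaired and 0.206 with the block). The other kept Cd44 probe sets gave a similar pattern of levels: over the 21 untreated lines the Pearson r with the probe set used was 0.98 and 0.95 on the log2 scale, for the same arrays. Their changes shared a direction in 13 and 9 of 21 lines. The remaining Cd44 probe set was above its array's median on no array.

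**Figure D4:**
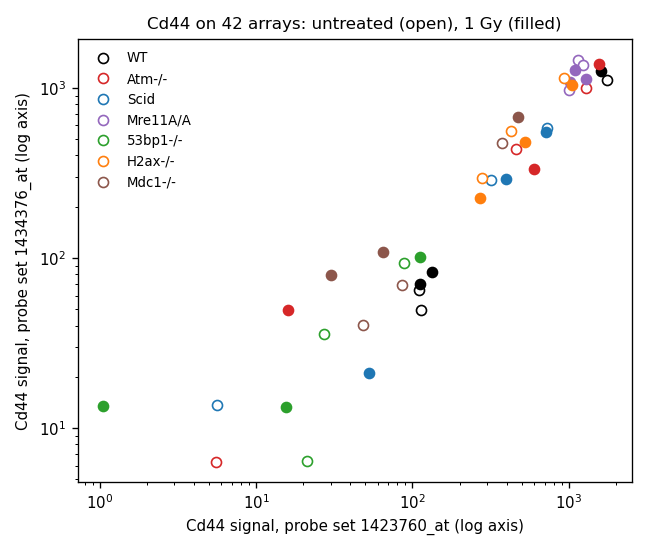
Cd44 MAS5 signal on 2 probe sets (both log axes) for the 42 arrays, untreated (open) and 1 Gy (filled), coloured by genotype. The points run along a diagonal, from 1.05 to 1742 on the horizontal axis, with the Mre11A/A arrays among the highest and the 53bp1-/- arrays in the lower part.

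None of the 8 untreated levels was called as different between genotypes. Ordered by mean log2 level, every pair of neighbouring genotypes overlapped for 7 of the genes (6 of 6 neighbour pairs each). The share of such overlaps over all genes was not counted, so these counts are a description. For Cd44 1 pair did not, Mre11A/A at 1125 ± 112 (signal, SD, n = 3) and H2ax-/- at 545 ± 339.7. For Cd69 the order ran from H2ax-/- and Scid, at 2093 ± 695 and 2121 ± 1307, through WT at 1582 ± 489 down to Mdc1-/- at 1223 ± 240.2. For Ccr7 it ran from Mre11A/A, at 941 ± 348, through WT at 676 ± 114 to Scid at 309.7 ± 177. For S1pr1 it ran from 53bp1-/-, at 330.3 ± 26.4, to Atm-/- at 141 ± 98.6. Of 48 tests of a mutant against WT, limma called 0 (3 had an unadjusted p under 0.05), and 0 with the line as a random block (7 had). The share of all genes called in these 6 comparisons ran from 0.0728% in Atm-/- through 0.396% in Scid, 2.42% in Mre11A/A and 2.93% in 53bp1-/- to the 4.08% in H2ax-/- and 4.97% in Mdc1-/-; with the block the shares were 0.154%, 0.655%, 2.95%, 3.43%, 4.51% and 5.32% in the same order. The test over all 7 genotypes also called none of the 8 genes (0 with an unadjusted p under 0.05; 4 with the block), while 15.9% of all genes were called, or 18.9% with the block. An unadjusted p under 0.05 was found there for 3679 of 12363 genes, or 3890 with the block. In the 6 comparisons with WT it was found for 1245 to 2211 genes each, or 1277 to 2220 with the block.

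**Figure D5:**
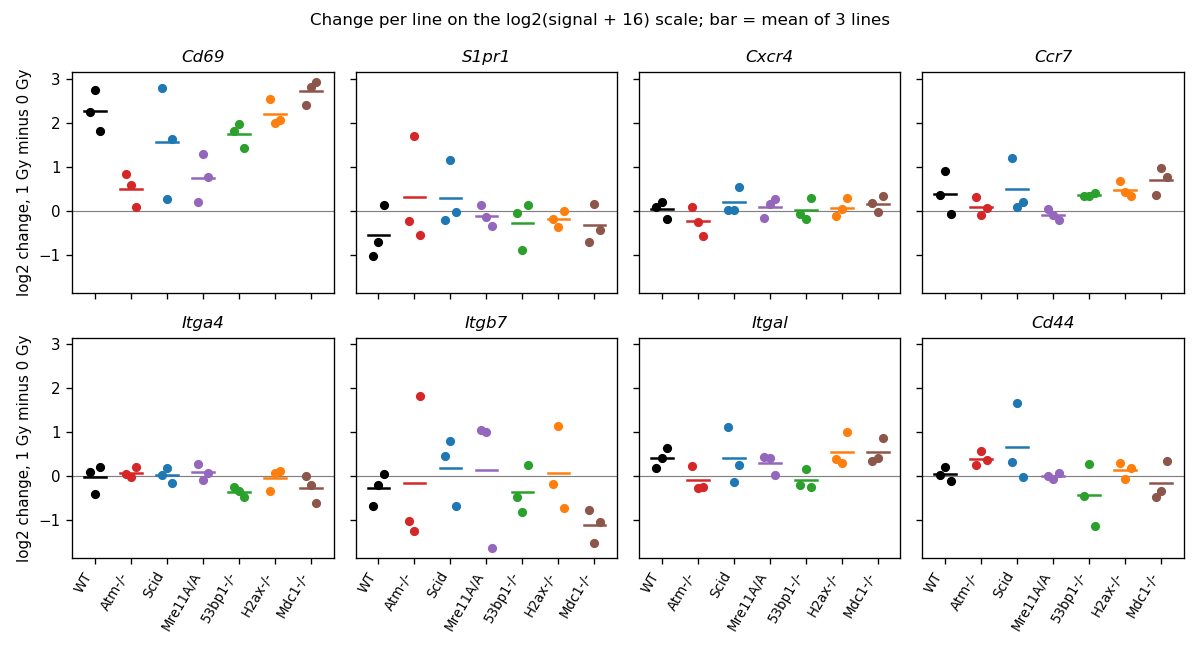
Change after 1 Gy on the log2(signal + 16) scale (1 Gy minus 0 Gy of the same line) for the 8 genes, by genotype; points are lines and bars the mean of 3 lines. Cd69 alone lies above 0 in all 21 lines, while Itgb7, S1pr1 and Cd44 scatter on both sides.

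Over the 56 responses (8 genes in 7 genotypes) the unpaired test called 3, all of Cd69 and all upward, and the blocked test called 6, of which 5 were Cd69 and 1 was Ccr7. In WT the median change of the 8 genes was 0.04 log2 units, beside 0.0057 over all genes tested, and in Mdc1-/- it was 0.0038 beside -0.0062. The blocked test called 3.76% of all genes in WT and 1.97% in H2ax-/-. The 7 genes other than Cd69 had 0 unadjusted p under 0.05 in 49 unpaired limma tests and 13 in 49 blocked tests. Over all genes 3.88% of the unpaired and 12.1% of the blocked response tests had such a p.

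Other genes of the same machinery were read from a list of 54 adhesion and migration genes, of which 38 were tested. The list was chosen with earlier results of these data known. Icam1, the ligand of LFA-1, was the gene that moved most. Its signal was 921 ± 208 (SD, n = 3) untreated and 2792 ± 925 irradiated in WT, 1017 ± 24.9 and 3177 ± 365 in H2ax-/-, and 997 ± 254 and 3097 ± 544 in Mdc1-/-. It rose by 1.56 ± 0.26 in WT (limma adjusted p = 0.00301), 1.48 ± 0.26 in Scid (0.0101), 1.62 ± 0.26 in H2ax-/- (0.00223) and 1.63 ± 0.26 in Mdc1-/- (0.00114). In Atm-/- it was 905 ± 237 untreated and 790.0 ± 137 irradiated, and the difference from the WT response was -1.73 ± 0.37 (adjusted p = 0.14; 0.00434 with the block). Icam1 was the only one of the 38 genes called unpaired, in 4 of 7 genotypes. With the block it was also called in 53bp1-/- (1.07 ± 0.26, adjusted p = 0.147 unpaired and 0.00525 blocked) and among the 7 genotypes' responses (0.00682). The unpaired call in WT was lost without the irradiated array of line 3 or the untreated array of line 1, and that in Scid without either array of line 1 or the untreated array of line 3 (adjusted p up to 0.254). The Scid mean with the block was 0.95 without line 1 and stayed called (adjusted p = 0.0136), the 53bp1-/- call was lost without line 2 or 3, and the blocked call against WT was lost without WT line 3 (adjusted p = 0.0637). Cd69 and Icam1 thus both had their smallest mean changes in Atm-/- and Mre11A/A.

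With the line as a block, 4 of the 38 genes were called in WT (1 up, 3 down), where 3.76% of all genes were, and 2 in Atm-/-, where 1.33% were. The count was 2 in Scid (beside 2.69% of all genes), 0 in Mre11A/A (beside 0.0324%; 0 unpaired too), 2 in 53bp1-/- (beside 1.94%), 4 in H2ax-/- (beside 1.97%) and 5 in Mdc1-/- (beside 5.72%). Cd47, the integrin-associated protein, was called lower in Scid (-0.25), 53bp1-/- (-0.34), H2ax-/- (-0.28) and Mdc1-/- (-0.33). Without a call it was also lower in every WT and Mre11A/A line (means -0.15 and -0.19) and averaged -0.13 in Atm-/-. Rassf5, an adaptor that passes chemokine signals to LFA-1, fell in WT (-0.38, blocked adjusted p = 0.00209), and its response in Atm-/- differed from that in WT (0.48, blocked adjusted p = 0.0147, lost without WT line 3). Rassf5 was also lower, without a call, in every Scid, 53bp1-/-, H2ax-/- and Mdc1-/- line (means -0.21, -0.10, -0.19 and -0.23). S1pr4, another sphingosine-1-phosphate receptor, was called lower in WT (-0.45) and H2ax-/- (-0.41). Every 53bp1-/- and Mdc1-/- line was lower for it too (mean -0.31 in each), without a call. Rasgrp2, an activator of Rap1, was called lower in Mdc1-/- (-0.47). It was also lower, without a call, in every Atm-/- and 53bp1-/- line (means -0.27 and -0.34). Itgb1, the other partner of Itga4, changed in Atm-/- by a mean of -0.57, with line changes of -0.11, -0.28 and -1.32, and by -0.20 without line 3, which ended the call (adjusted p = 0.349). Gnai2, the G protein subunit through which chemokine receptors signal, rose in Atm-/- (0.27) and Mdc1-/- (0.25). The remaining calls were Cd48, lower in WT and H2ax-/-, and Selplg, higher in Mdc1-/-, both named after their values were seen. Cd48 was also lower, without a call, in every Scid, Mre11A/A, 53bp1-/- and Mdc1-/- line. The unpaired test called none of these changes other than those of Icam1. Each blocked call of a gene other than Icam1 in a genotype's response was lost without at least 1 of its lines, with adjusted p up to 0.520. The lines were any of the 3 for Cd47 in Scid, S1pr4 and Cd48 in H2ax-/- and Selplg in Mdc1-/-. They were line 3 for Rassf5 and S1pr4 in WT, for Cd47 in Mdc1-/- and for Itgb1 in Atm-/-. For Cd47 they were line 1 or 2 in 53bp1-/- and line 1 or 3 in H2ax-/-, and for Rasgrp2 line 1 or 3 in Mdc1-/-. For Gnai2 they were line 1 or 3 in Atm-/- and line 2 or 3 in Mdc1-/-, and for Cd48 line 3 or 4 in WT.

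Before radiation 4 of the 38 genes differed among the 7 genotypes in the unpaired test: Gnai2 (adjusted p = 0.00034), Tln1 (0.0098), Rap1a (0.0208) and Klf2 (0.0243). That is a smaller share than the 15.9% called over all genes. With the line as a random block Ccr6, Dock2 and Itga6 were called too, 7 of 38 beside 18.9% of all genes; they are named after their values were seen. In the unpaired test Gnai2 stayed called whichever untreated array was left out, Tln1 was lost without Atm-/- line 3 (adjusted p = 0.0527), Rap1a without Scid line 2 or 3 (up to 0.199) and Klf2 without Mre11A/A line 2 or 3 or WT line 3 (up to 0.104). Tln1 links integrins to actin, Rap1a is a small GTPase that activates LFA-1, and Klf2 is the factor whose motif is marked in the printed sequences. Klf2 was higher in Mre11A/A, at 644 ± 311 (SD, n = 3), than in WT, at 173 ± 121, a difference of 1.88 ± 0.44 log2 units (adjusted p = 0.0121, and up to 0.143 without one of the same 3 lines). S1pr1, a gene Klf2 is known to activate, read 119, 359 and 439.7 in the untreated Mre11A/A lines and 293, 412 and 189 in WT, which overlap. Itgb7 read 26.2, 45.8 and 87.1 and 21, 53.3 and 47.5 in the same lines, also overlapping.

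The genes whose changes over the 21 lines were most like those of Cd69 were Pim2 (Pearson r = 0.94, Spearman rho = 0.93), Swap70 (0.90 and 0.91), Relb (0.90 and 0.92), Cd40 (0.90 and 0.90) and D17H6S56E-5 (0.90 and 0.92). With the genotype means taken out, the Pearson r was 0.84 for Pim2, 0.75 for Swap70, 0.81 for Relb, 0.80 for Cd40 and 0.83 for D17H6S56E-5. Here too the Scid lines, with the widest spread of Cd69 changes, weigh most. Relb is a subunit of NF-κB, Cd40 a receptor of B cells, Pim2 a survival kinase and Swap70 a signalling protein of B cells. Cd40 changed by 3.33 log2 units on average in WT and by -0.25 in Atm-/-, and Relb by 2.91 and -1.11. For Ccr7 the most alike were Prkcd (r = 0.86, rho = 0.87), Gadd45b (0.84 and 0.86) and Cd74 (0.83 and 0.86). The lines share arrays and genotypes, and the genes were picked for likeness out of all those tested, so these values describe the 21 lines. Over the same lines the change in Cd69 had a Pearson r of -0.56 with Itga4, -0.46 with S1pr1, -0.36 with Itgb7, -0.31 with Cd44 and 0.36 with Cxcr4.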

How the data were processed

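Labelled total RNA of 42 cultures (21 lines, each at 0 and 1 Gy) was hybridised to Affymetrix mouse arrays after One-Cycle amplification, per the labels' protocols. The deposited values are MAS5 signals, linear intensities per probe set, per the submitters' processing notes (no MAS5 version is given in the sources used here). In the deposited table each array's 2% trimmed mean is 500.003, so the authors' scaling sets every array to one level. The table holds 45101 probe sets. The 64 control probe sets were left out, and 34945 have 1 gene symbol, 932 several and 9160 none. Scan dates and slides are not given in the sources used here, so no batch was tested. Arrays have no read depth, and with 3 in each group their number sets how precise a mean can be.

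Values were taken to log2(signal + 16). A probe set was kept if above its array's median on at least 3 arrays (28260 were), and a gene was its kept probe set with 1 symbol and the highest mean. R 4.3.3 and limma 3.58.1 (eBayes with an intensity trend, two-sided, Benjamini-Hochberg over 12363 genes within each comparison, threshold 0.05) fitted 14 group means to all arrays with 28 residual degrees of freedom. The second test added the line as a fixed block for responses (14 residual degrees of freedom) and as a random block for untreated levels (correlation 0.53). The replicate numbers pair the arrays because the study's design text says that each line was both treated and untreated. Deviations from the group means correlated at 0.35 to 0.64 in all 21 same-numbered pairs. Between different numbers they correlated at -0.053 or less. Taking out the mean of 3 arrays pushes these values below 0 once the same-numbered ones are above it, so they are no separate check. The unpaired fit was kept as the first test, and blocked values are given where they change a call of the 8 genes or of a listed gene named.

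The genes, the lists and the tests were chosen with earlier results of these data known. Named genes were the 8 chosen, up to 6 of the adhesion list called in any response and up to 6 called untreated, and the 5 and 3 genes most like Cd69 and Ccr7. The fit was tested on simulated data. Alternatives were other pseudocounts, no filter, quantile and 75th percentile scaling, the mean of a gene's probe sets, only the groups compared, no trend, and leaving out single arrays, lines or the 2 arrays with high medians. Promoter windows came from a set based on RefSeq (GRCm38.p6), and that set held 4 of the 8 genes. The others' sequences were not used here.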

Additional observations from a re-analysis of the deposited data

Results flagged for a closer look

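The radiation response of Cd69 in Atm-/- differed from that in WT in the test of the difference itself with the line as a block (-1.76 log2 units, adjusted p = 0.0178), with Cd69 higher after radiation in 3 of 3 lines of each genotype. The unpaired test gave 0.480 and did not call it. The blocked call was lost in 3 of the 6 runs that left out a line (WT line 1, WT line 3 or Atm-/- line 3).

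The response of Cd69 also differed among the 7 genotypes as a whole with the line as a block (adjusted p = 0.0117). The mean change ran from 0.50 log2 units in Atm-/- to 2.71 in Mdc1-/-, and the unpaired test gave 0.817.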

How the results depend on the processing

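Counts are of the 8 genes called. With the replicate block the count went from 0 to 1 in Scid, in 53bp1-/-, in Atm-/- against WT and among the 7 genotypes' responses (Cd69 each time), and from 1 to 2 in Mdc1-/- (Ccr7 added). It changed no other call of the 8 genes, and the same counts came from the block with quantile scaling, with 75th percentile centring and without both lines of the high-median arrays, which were chosen after seeing the data. A fit of only the groups compared, with fewer residual degrees of freedom, gave 0 in place of 1 in WT (Cd69 adjusted p = 0.0552) and in H2ax-/- (0.0537), and 1 in place of 0 for the untreated level in Mdc1-/- against WT (Cxcr4). The mean of kept probe sets gave 1 in 53bp1-/- (Cd69, 0.045), by a change in the genes around it, since Cd69 has 1 probe set.

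Leaving out single arrays gave 0 to 1 in Scid, in 53bp1-/- and among the 7 genotypes untreated (Cxcr4, without Atm-/- line 3). Leaving out single lines with the block gave 0 to 1 in Scid, 1 in 53bp1-/-, 0 to 1 in Atm-/- against WT and 1 to 2 in Mdc1-/-. Where no cause is named, it was not tested. The called responses of Cd69 and Ccr7 kept their direction in every setting run. Of the 56 responses of the 8 genes the sign turned in 1 with a pseudocount of 1, 0 with 64, 1 with quantile scaling, 2 with the 75th percentile, 7 with the mean of probe sets (values up to 0.41 in size) and 3 without the high-median arrays.

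Counts over all genes moved more: the block took them from 12 to 465 in WT, 1 to 164 in Atm-/-, 9 to 332 in Scid, 0 to 4 in Mre11A/A, 3 to 240 in 53bp1-/-, 11 to 244 in H2ax-/-, 78 to 707 in Mdc1-/- and 3 to 256 in Atm-/- against WT, and a fit of only the groups compared gave 0 in WT, 3 in Scid, 25 in 53bp1-/- and 60 in Mdc1-/-. Signals under the reference level of 101 (most of Itgb7, part of Cd44, Itgal and S1pr1) are near background, and their changes are the least certain.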
